A study of Mus musculus with 15 samples.

Results

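H3K4Me1, the monomethyl mark on lysine 4 of histone H3, was compared between 3 and 12 h post-induction (hpi) in C10 cells, using 2 of the 15 chromatin immunoprecipitation sequencing (ChIP-seq) libraries of the series. C10 is a single cell line derived from the mouse pre-B line HAFTL, and it carries C/EBPα fused to the estrogen receptor hormone-binding domain, so that β-estradiol moves the factor into the nucleus and turns the cells into induced macrophages (iMΦ). Per the labels, the cells of both libraries had been induced with 100 nM β-estradiol and grown with IL-3 and CSF-1, and uninduced cells at 0 hpi received 0.1% ethanol, the solvent. The study's methods give the β-estradiol dose in µM rather than nM, and which unit is right is not known. H3K27Ac and H3K27Me3 were profiled in the same line at 0, 3, 12, 24 and 48 hpi. Each mark had a single library at each of these times. No difference between times could therefore be set against replicate error, and no test was run. The 95% intervals of tag counts and ratios below cover counting error only. Those of shares and medians treat windows as independent, which neighbouring windows are not.

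H3K4Me1 is laid down by MLL3 and MLL4 methyltransferases and covers enhancers broadly, whether they are poised or active. H3K27Ac is added by P300 and CBP and marks enhancers and promoters that are active. At active transcription start sites (TSS) H3K4Me1 flanks the TSS, where trimethylated lysine 4 takes its place, and in blood cells H3K4Me1 has been used to follow enhancers that open or close as a lineage changes. C/EBPα and PU.1 are factors that bind myeloid enhancers, and EBF1, E2A and PAX5 act at B cell enhancers. This split is not strict, as the study found PU.1 and EBF1 already at part of the myeloid enhancers in uninduced pre-B cells.

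The deposited libraries held 17.85 M tags at 3 hpi and 16.77 M at 12 hpi. After 1 tag per position was kept, both were thinned to 16.41 M tags and counted in 806873 windows of 3000 bp that held a tag, with a mean of 20.33 tags. A window was called enriched when its Poisson upper tail over that mean was below 0.001, which took 37 tags. Windows whose centre lay within 2500 bp of an annotated TSS were called proximal and all others distal. A gain is a window enriched at 12 hpi with at least 2-fold more tags than at 3 hpi, and a loss is a window enriched at 3 hpi with at least 2-fold fewer at 12 hpi, after 5 tags were added to each count. All positions are in mm9. Starts of the 8 pre-B cell markers carried H3K27Ac in both libraries of that mark (median 38.0 and 32.1 times the genome mean at 3 and 12 hpi). The median of macrophage markers went from 9.30 to 23.7 times. Medians were below the mean at both times for markers of T cells (0.403 and 0.313) and of erythroid cells (0.254 and 0.164), though not every single marker was. One check set H3K27Ac at 0 and 3 hpi apart from the rest. On chromosome 12 from 114670001 to 114730000, over 17 immunoglobulin segments, these libraries held 569 and 463 tags, while H3K27Ac at 12 hpi held 1 and the other 12 libraries held 7 together. The H3K4Me1 libraries held 1 tag there at 3 hpi and 0 at 12 hpi. Between these libraries 1 bin of 10 kb stood apart, on chromosome 5 from 10840001 to 10850000, with 21 tags at 3 hpi and 0 at 12 hpi. Values that set H3K27Ac at 0 or 3 hpi against a later time span this difference between libraries, and its part in them was not tested.

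Short stretches of the windows with the largest gains and losses, named by their nearest protein-coding gene and described further on, are shown for the factor motifs they hold. Each is 100 bp of the plus strand of mm9, around the match nearest to the window centre, with the match in capitals. Distal gains that held the C/EBP letters TTGCNNAA on one of the strands come first. These letters stood in 9 of the 10 named distal gains and also in 9 of the 10 named distal losses.
Tmbim4, chr10:119600675-119600774: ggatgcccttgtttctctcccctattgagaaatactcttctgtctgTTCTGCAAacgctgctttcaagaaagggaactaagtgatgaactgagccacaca
Mki67, chr7:142846513-142846612: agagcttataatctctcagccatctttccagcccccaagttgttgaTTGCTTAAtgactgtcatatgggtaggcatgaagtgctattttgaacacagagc
Btg1, chr10:95929473-95929572: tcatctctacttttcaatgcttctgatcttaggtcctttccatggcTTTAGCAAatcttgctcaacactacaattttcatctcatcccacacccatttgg

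The PU.1 letters GAGGAAGT, here read on the minus strand, are shown in a distal gain and 2 proximal gains. They stood in 2 distal and 2 proximal windows of the named gains, and also in 2 named distal losses, nearest to Nmral1 and Lrig3.
Lrp1, chr10:127016880-127016979: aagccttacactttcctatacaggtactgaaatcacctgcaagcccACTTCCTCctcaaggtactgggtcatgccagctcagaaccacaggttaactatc
Hr, chr14:70951140-70951239: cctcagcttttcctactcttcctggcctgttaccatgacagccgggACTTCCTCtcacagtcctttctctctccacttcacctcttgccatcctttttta
Msr1, chr8:40728768-40728867: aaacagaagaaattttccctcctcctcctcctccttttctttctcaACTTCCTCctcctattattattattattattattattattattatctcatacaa

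The EBF1 letters TCCCNNGGG, on either strand, are shown in a distal and a proximal loss. They stood in 3 of the 15 named losses and in 5 of the 15 named gains.
Fbln2, chr6:91211703-91211802: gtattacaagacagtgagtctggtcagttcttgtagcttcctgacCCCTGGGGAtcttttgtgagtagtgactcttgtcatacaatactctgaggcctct
Il17ra, chr6:120414005-120414104: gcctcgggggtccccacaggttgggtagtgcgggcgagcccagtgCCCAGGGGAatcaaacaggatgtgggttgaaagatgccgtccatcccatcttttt

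The number of enriched windows hardly differed between 3 and 12 hpi, and most windows were enriched at both times. Of 103855 windows enriched at either time, 90511 were enriched at 3 hpi, 91020 at 12 hpi and 77676 at both. Of the 13344 enriched at 12 hpi only, 7273 were gains, and of the 12835 enriched at 3 hpi only, 3570 were losses. Gains were more numerous than losses: 12386 windows were at least 2-fold higher at 12 hpi and 5259 at least 2-fold lower. The remaining 86210 windows passed neither fold. The median window was little changed, with a log2 change of -0.029 (-0.032 to -0.025), when scaled by total tags.

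Change was more frequent away from TSS. Among 77953 distal enriched windows, 10494 were gains (13.5%, exact binomial interval 13.2 to 13.7) and 4682 were losses (6.01%, 5.84 to 6.18). Among 25902 proximal windows, 1892 were gains (7.3%, 6.99 to 7.63) and 577 were losses (2.23%, 2.05 to 2.41). Gains made up 69.1% of the distal and 76.6% of the proximal calls. Median log2 changes were -0.023 (distal) and -0.040 (proximal), and the 95th percentiles were 1.63 and 1.25 against 5th percentiles of -1.05 and -0.76. Gains also reached further: 2385 of them were at least 4-fold and 235 at least 8-fold, against 87 and 2 of the losses. Windows just inside the 2-fold limit went from 18 to 41 tags (gain) and from 45 to 20 (loss), and windows just outside it from 364 to 732 and from 356 to 176.

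**Figure D1:**
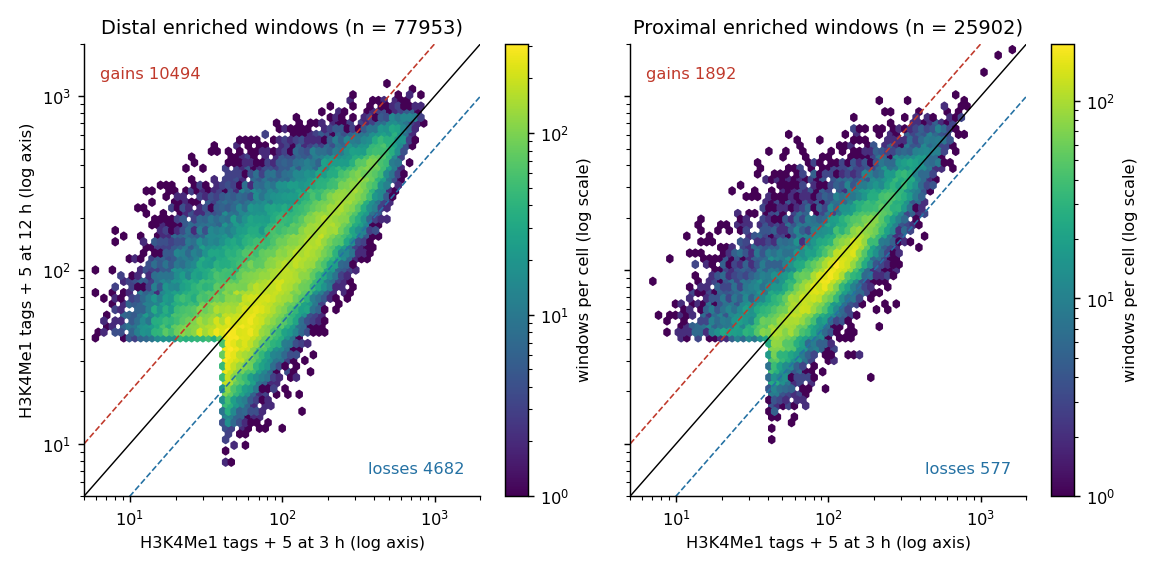
H3K4Me1 tags in each enriched 3 kb window at 3 hpi (x axis) and 12 hpi (y axis), with 5 tags added and both axes logarithmic, for distal and proximal windows. Colour gives the number of windows per cell, the solid line marks equality and dashed lines 2-fold differences. The 10494 distal gains spread far above the upper line, while the 4682 distal losses stay close to the lower one.

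The balance depended on how the libraries were scaled. In windows enriched at neither time the median count was 5.10 tags at 3 hpi and 3.98 at 12 hpi, and enriched windows held 68.5% of the tags at 3 hpi and 73.7% at 12 hpi. Scaling by these background windows instead of by total tags added 0.356 to each log2 ratio, gave 16384 distal gains and 1528 distal losses (91.5% gains) and turned the distal median to 0.319. Scaling by windows enriched at both times added 0.031 and gave 10815 and 4183 (72.1% gains). Without the need for enrichment, in windows of at least 10 tags, gains were 40.8% of the distal calls and 53.7% of the proximal calls. Gains outnumbered losses on each of the 20 chromosomes used, with 10.3% to 13.3% of the enriched windows gained and 3.97% to 6.59% lost.

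Gains and losses differed in where they lay. Distal gains were a median 14.3 kb from the nearest TSS, close to the 14.6 kb of all distal enriched windows, whereas distal losses were 23.2 kb away. The share of losses was larger at greater distance: 4.11% of windows at 2.5 to 10 kb from a TSS, 6.06% at 10 to 50 kb, 8.82% at 50 to 100 kb and 12.3% beyond 100 kb. For gains these shares were 13.2%, 14.1%, 12.4% and 12.0%. The median log2 change of all enriched windows in these classes was 0.04, -0.02, -0.164 and -0.256, when scaled by total tags. These shares were not recounted under background scaling, and its part in them was not tested. Beyond 100 kb losses (610) were as frequent as gains (593). By their centres, 52.3% of distal gains lay in introns and 43.0% between genes, against 50.1% and 46.8% of distal losses and 55.4% and 40.6% of all distal enriched windows. Few were exonic, with 1.73% of distal gains in coding exons and 2.39% in UTRs.

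Most runs of gains and losses were single windows. The 12386 gains formed 8150 runs, of which 5702 were 1 window and 390 held 4 neighbouring windows or more. The 5259 losses formed 4639 runs, of which 4129 were 1 window and 16 were that long. The longest gain spanned 45 kb on chromosome 11 from 68247001 to 68292000, nearest to Pik3r5, which encodes a regulatory subunit of PI3 kinase gamma, and held 411 tags at 3 hpi and 2170 at 12 hpi. The longest loss spanned 39 kb on chromosome 4 from 114249001 to 114288000, nearest to Gm12824, with 2761 and 1046 tags.

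To name single windows, they were ranked by the bound nearest to no change of the exact interval of the 12 h to 3 h ratio. The first 10 distal and 5 proximal windows of each direction were taken, with 1 window per nearest protein-coding gene. They were chosen by these counts, so the counts describe them and test nothing. The 10 distal gains held 1 to 20 tags at 3 hpi and 95 to 453 at 12 hpi. All of them were therefore below the genome mean at 3 hpi and well above it at 12 hpi.

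The first lay in an intron of Uimc1, 15755 bp upstream of Hk3, a hexokinase of myeloid cells, and held 3 tags (0.619 to 8.77) at 3 hpi and 158 (134 to 185) at 12 hpi. Its ratio was 52.7, with an interval of 17.7 to 258. The second (chr10:119598001-119601000) held 8 and 276 tags, a ratio of 34.5 (17.3 to 80.7). Its nearest protein-coding gene start by the rule was that of Tmbim4, but the window lay in an intron of Irak3, which restrains Toll-like receptor signalling in macrophages. The third was nearest to Mki67 and lay in an intron of Ptpre, a tyrosine phosphatase, with 6 and 227 tags (chr7:142845001-142848000).

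Intergenic windows followed. The window 150134 bp upstream of Btg1, an antiproliferative gene, held 1 and 95 tags (chr10:95928001-95931000), so that its ratio of 95 had an interval of 16.6 to 3790. Its log2 change of 4.06 was 1.54 on a window grid shifted by 1500 bp. A window 4237 bp upstream of C1galt1c1, a chaperone of O-glycosylation on chromosome X, held 3 and 147, and its log2 change of 4.25 was 2.27 in 6 kb windows. One window 247204 bp downstream of the Eea1 start held 9 and 279 tags, and Eea1 encodes a tether of early endosomes. The window in Tom1, an adaptor of endosomal sorting, held 11 and 308. In these windows the intervals at 3 and 12 hpi did not overlap, which the ranking selects for, and the same held for the remaining 3 distal gains. Those were an intron of Lyrm1 nearest to Dcun1d3 (7 and 218 tags) and a window nearest to Gm826 (4 and 155). The last was an exon position in Lrp1, a scavenging endocytic receptor of macrophages (20 and 453).

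Ratios of the proximal gains, 19.3 to 39.0, lay within or below the range of the distal gains. Among them was the window 1469 bp upstream of the start of Msr1, the class A scavenger receptor of macrophages, with 7 tags (2.81 to 14.4) at 3 hpi and 146 (123 to 172) at 12 hpi. Scarb1, the HDL receptor, had 4 and 116 tags at an internal TSS, and its log2 change of 3.75 was 0.51 on the shifted grid. A window in Adam8, a metalloproteinase of myeloid cells, held 2 and 78 tags and took the name of 6430531B16Rik by the rule, with a log2 change of 3.57 that was 1.64 on the shifted grid. The window at Hr held 10 and 193. The last, with 9 and 177 tags, lay 9096 bp upstream of Fcnb, which encodes ficolin B of myeloid cells, and within 467 bp of the start of Gm13371.

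Distal losses had smaller ratios than the distal gains. The 10 named windows held 39 to 147 tags at 3 hpi and 3 to 21 at 12 hpi, which was 7.0 to 13.7 times less. The first (chr16:4701001-4704000) held 126 (105 to 150) and 10 (4.80 to 18.4) tags, 12.6 times less with an interval of 6.63 to 26.9. It lay in an intron of Dnaja3, nearest to Nmral1, a redox-sensing protein. An intergenic window nearest to Rpsa-ps10 held 96 and 7 tags, and another, 56795 bp upstream of Gm6158, held 124 and 14. The window 3160 bp downstream of the start of Ccl20, the chemokine ligand of CCR6, held 73 and 7. An intronic window of Fbln2, a matrix protein, held 147 and 21 (chr6:91209001-91212000). The intervals did not overlap in any of these, which the ranking selects for. The remaining 5 were nearest to Ide (75 and 8), Mrpl16 (68 and 7), Rassf8 (54 and 5), Slco3a1 (40 and 3) and Lrig3 (39 and 3), whose log2 change of -2.46 was -0.71 on the shifted grid. That of Ide was -2.62, and -1.72 on the shifted grid.

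All 5 named proximal losses lay in introns, 1116 to 2430 bp from the nearest TSS. Slc15a3, a lysosomal histidine and peptide transporter, went from 180 (155 to 208) to 19 (11.4 to 29.7) tags, Il17ra, a cytokine receptor, from 211 to 41, and Pkm2, the pyruvate kinase gene, from 249 to 53. The Pkm2 loss depended on the window, as its log2 change of -2.13 was -0.21 on the shifted grid and -0.45 in 6 kb windows, and that of Slc15a3 went from -2.95 to -1.21 and -0.89. For B3gnt2 it was -2.24, and -1.09 in 6 kb windows. The windows at B3gnt2 (151 and 28 tags) and in Atm, named by 4930550C14Rik (155 and 28), were alike. H3K27Ac was not low in 4 of these 5 windows. It stood at 1175 and 1060 tags (3 and 12 hpi) at Slc15a3, 1317 and 1273 at Il17ra, 1066 and 755 at B3gnt2, and 815 and 1025 at Pkm2, against 65 and 29 in the Atm window. So at the first 4 the loss of H3K4Me1 was not matched by a loss of acetylation of similar size.

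**Figure D2:**
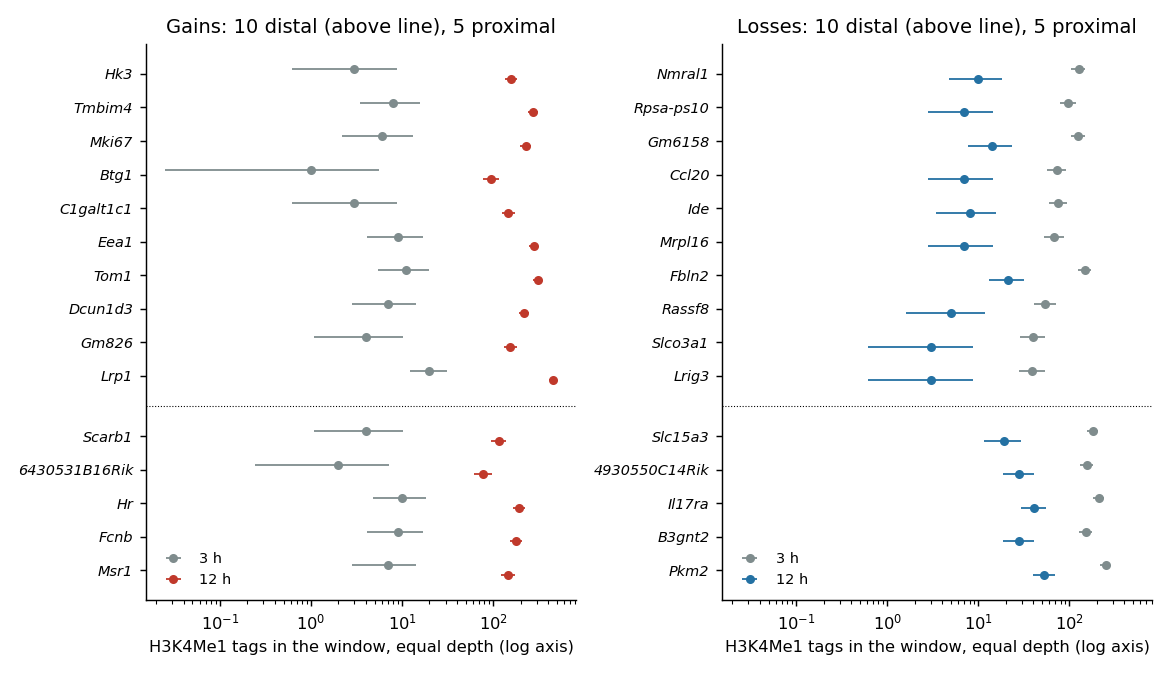
H3K4Me1 tags at equal depth (log x axis) in the 15 named gains and 15 named losses at 3 and 12 hpi, labelled by the nearest protein-coding gene, with exact 95% Poisson intervals as bars. The windows were ranked by these counts, so that the intervals of the 2 times do not overlap follows from the choice. The distal gains start at 1 to 20 tags while the distal losses end at 3 to 21.

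Over all distal windows the PU.1 letters separated gains from losses more than the others did. They occurred in 25.4% of distal gains (24.6 to 26.3), 21.9% of all distal enriched windows and 16.0% of distal losses (15.0 to 17.1). The AP-1 letters TGANTCA occurred in 67.6%, 62.9% and 61.3% of these windows, and the C/EBP letters in 74.4%, 72.5% and 72.4%. The EBF1 letters went the other way, with 30.9%, 33.5% and 34.3%, but not in proximal windows, where they were in 38.8% of gains, 40.2% of all enriched windows and 38.0% of losses. The PU.1 letters were in 26.5%, 19.7% and 17.5% of these proximal windows. The RUNX letters TGTGGT (92.9%, 92.5% and 92.5%) and the E2A letters CAGCTG (76.5%, 75.8% and 74.9%) were nearly level. Both strands were searched over 3 kb, so short motifs were found in most windows whatever their change, and a match is not a bound site. Base composition moved with the calls, as median GC was 44.9% in distal gains, 43.7% in distal losses and 44.4% in all distal enriched windows. When distal enriched windows were split into 5 GC classes, the share of gains went from 10.3% in the lowest to 15.8% in the highest and that of losses from 6.96% to 3.8%. The part of GC in these differences was not tested.

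The windows were followed in libraries that had no part in choosing them. Levels are given here as tags over the mean window of each whole library. At 0 hpi the median H3K4Me1 level of the distal gains was 1.22 and that of the distal losses 3.16, beside 3.27 in all distal enriched windows. Distal gains stood at 6.32 at 24 hpi and 6.15 at 48 hpi, and distal losses at 1.22 and 1.15. H3K4Me1 was higher at 24 hpi than at 0 hpi in 99.7% of the distal gains and 1.9% of the distal losses (48.2% of all distal enriched windows). At 48 hpi the shares were 98.6% and 5.47% (44.5% of all). The direction seen between 3 and 12 hpi was thus also found between 0 and 48 hpi in nearly all of these windows.

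Most distal gains came from windows that had not passed the enrichment limit for H3K4Me1 or H3K27Ac before induction. At 0 hpi 69.1% of distal gains were enriched for neither H3K4Me1 nor H3K27Ac, 22.3% for H3K4Me1 alone and 8.14% for both. For distal losses these shares were 14.5%, 49.7% and 34.9%, and for all distal enriched windows 22.2%, 36.9% and 40.2%. H3K27Me3, the mark of Polycomb repression, was enriched in 28.4% of distal gains at 0 hpi against 17.3% of all distal enriched windows. Its median level in the gains was below the genome mean at each time, with 0.862, 0.857, 0.908, 0.819 and 0.743 in order of time.

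Not every named loss was lasting. Over the 5 times, in order, H3K4Me1 at the Nmral1 window stood at 6.98, 6.10, 0.469, 2.26 and 6.41 times the mean. The Fbln2 window took the same course with 5.87, 7.05, 0.984, 2.15 and 7.56, and the Ide window with 3.16, 3.46, 0.375, 1.04 and 3.59. Rpsa-ps10 was also above its 0 hpi level at 48 hpi, with 2.69 against 2.05, and so was the Atm window (6.79 against 6.42, after 1.31 at 12 hpi). The Ccl20 and Rassf8 windows came close to it, with 2.24 against 2.71 and 1.67 against 1.83. By contrast Gm6158 (5.98 at 0 hpi, 1.15 at 48 hpi), Slco3a1 (1.55 and 0.256) and Mrpl16 (3.04 and 0.769) stayed low, as did the intronic windows of Slc15a3 (7.92 and 1.15), Il17ra (9.69 and 1.67) and Pkm2 (9.36 and 2.44). Of all 4682 distal losses, 417 (8.91%) were at least 2-fold higher at 48 hpi than at 12 hpi, beside 7.0% of all distal enriched windows. All 15 named gains were above their 0 hpi level at 24 and 48 hpi. The Eea1 window reached 20.1 times the mean at 48 hpi and the Tom1 window 17.2.

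**Figure D3:**
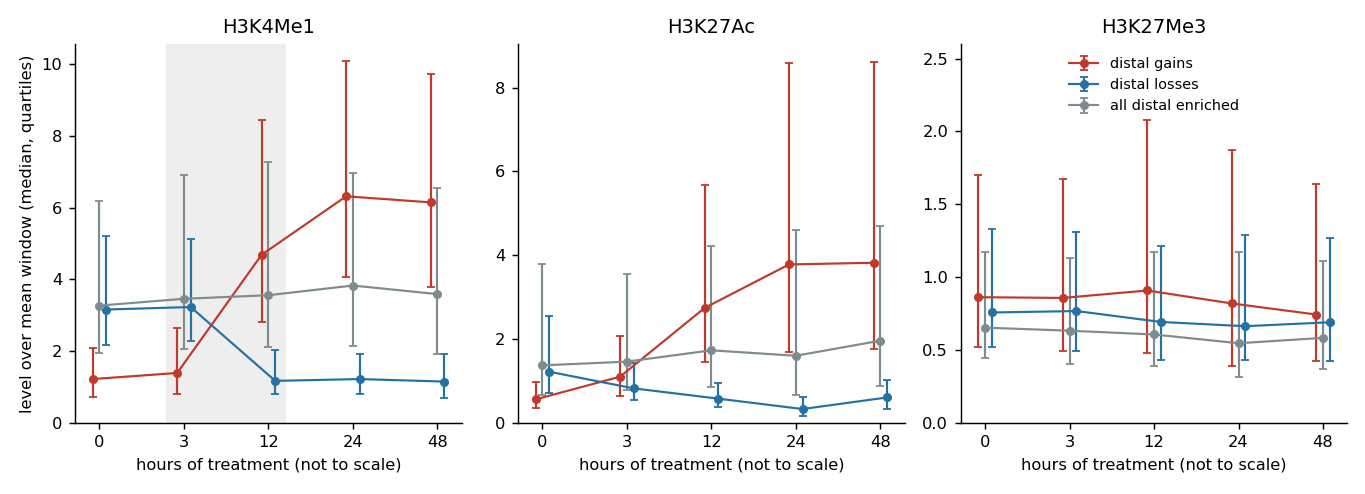
Median level over the mean window (y axis) of H3K4Me1, H3K27Ac and H3K27Me3 at 0, 3, 12, 24 and 48 hpi in distal gains, distal losses and all distal enriched windows, with quartiles as bars and 1 library per point. The shaded times chose the windows. Outside them, gains stand at 1.22 (0 hpi) and 6.32 (24 hpi) for H3K4Me1, and their H3K27Ac median goes from 0.558 at 0 hpi to 3.82 at 48 hpi.

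When scaled by total tags, H3K27Ac differed between 3 and 12 hpi in the same direction as H3K4Me1 in most gains and losses. At distal gains the median H3K27Ac count was 22 tags at 3 hpi and 57 at 12 hpi at equal depth, a median log2 change of 1.09 (1.07 to 1.11), and 91.5% of these windows were higher at 12 hpi. At distal losses the counts were 17 and 12, a median log2 change of -0.36 (-0.38 to -0.34), and 26.4% were higher. All distal enriched windows had a median of 0.13. In windows enriched for H3K27Ac at neither time its median count was 5.98 tags at 3 hpi and 4.96 at 12 hpi. Scaling by these background windows adds up to 0.271 to a log2 ratio of H3K27Ac, much of the size of the change at distal losses. With both marks scaled in that way, the median H3K27Ac change was 1.148 at distal gains and -0.158 at distal losses. Over whole libraries, H3K27Ac was enriched at 3 hpi in 18.2% of distal losses and 43.2% of all distal enriched windows. Only windows enriched at 3 hpi could count as at least 2-fold lower in the shares that follow. H3K27Ac was enriched at 12 hpi and at least 2-fold higher in 47.4% of distal gains (12.6% of all distal enriched windows) and enriched at 3 hpi and at least 2-fold lower in 9.63% of distal losses (5.79% of all). Proximal gains had a median of 1.12 with 48.6% at least 2-fold higher (8.34% of all proximal windows), and proximal losses -0.26 with 8.67% at least 2-fold lower (3.42% of all). Across windows the log2 changes of the 2 marks correlated with a Pearson r of 0.56 and a Spearman rho of 0.52 over 77953 distal windows and 0.49 and 0.37 over 25902 proximal ones, which share 4 libraries and are not independent.

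The relation was steeper on the side of gains. H3K27Ac was enriched at 3 hpi in only 18.2% of distal losses, however, and in 30.2% of distal gains. Whether these starting levels limited its fall was not tested. In distal windows with an H3K4Me1 log2 change above 3 the median H3K27Ac change was 2.44, and H3K27Ac was higher at 12 hpi in all 192 of them. From 2 to 3 it was 1.66, from 1 to 2 it was 0.98 and from 0.5 to 1 it was 0.56. On the other side it was -0.23 for changes from -1 to -0.5, -0.36 from -2 to -1 and -0.17 in the 74 windows below -2.

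**Figure D4:**
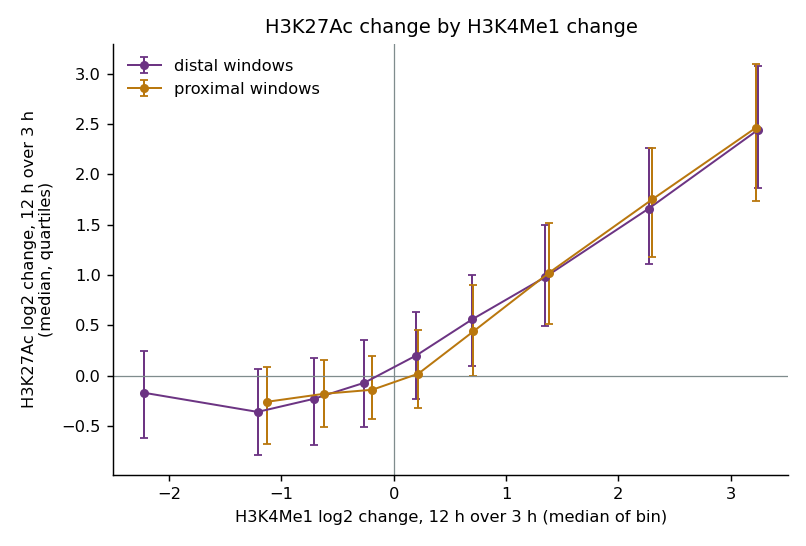
Median H3K27Ac log2 change, 12 over 3 hpi (y axis, quartiles as bars), in bins of the H3K4Me1 log2 change of the same windows (x axis), for distal and proximal enriched windows. The H3K27Ac median reaches 2.44 in the highest distal bin and stays at -0.36 or above in all bins.

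In many of these windows H3K27Ac at 3 hpi already differed from 0 hpi. From 0 to 3 hpi the median H3K4Me1 level of distal gains went from 1.22 to 1.39, while that of H3K27Ac went from 0.558 to 1.1. H3K27Ac was at least 2-fold higher at 3 than at 0 hpi in 46.6% of distal gains (17.0% of all distal enriched windows). It was at least 2-fold lower in 34.3% of distal losses (13.4% of all). These shares used whole-library levels, with no tags added and no enrichment needed, so low counts pass more easily. They cannot be set beside the 2-fold shares between 3 and 12 hpi. In distal losses the H3K4Me1 median was 3.16 at 0 hpi and 3.23 at 3 hpi, and that of H3K27Ac 1.22 and 0.822. The H3K27Ac libraries of 0 and 3 hpi shared the chromosome 12 segment, so this step did not span it. The windows were chosen to differ from 3 hpi in H3K4Me1 but not in H3K27Ac, so the H3K4Me1 values at 3 hpi are fixed in part by the choice. Single windows gave examples. At the Nmral1 window H3K27Ac was 12.8 times the mean at 0 hpi and 2.47 at 3 hpi, when H3K4Me1 was still 6.10, and at the Ide window 7.45 and 1.0. At the Hk3 window H3K27Ac took the values 0.355, 1.69 and 11.2 over the first 3 times, and H3K4Me1 0.443, 0.180 and 7.41. H3K27Ac at 48 hpi was above 0 hpi in 97.1% of distal gains and 19.9% of distal losses (54.8% of all).

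The profile around TSS had the same shape at both times and differed most just downstream. At 10297 protein-coding starts with H3K27Ac at 3 hpi, H3K4Me1 dipped at the start, with 3.28 times the mean within 500 bp at 3 hpi and 3.21 at 12 hpi, and was higher 1 to 3 kb downstream (6.41 and 6.30) and upstream (4.49 and 4.78). As a ratio it differed most 700 bp downstream, with 4.79 at 3 hpi and 4.03 at 12 hpi. The 12053 other starts had 0.731 and 0.807 within 500 bp.

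For gene lists, a locus was the gene body with 10 kb on either side. Of 15512 protein-coding loci with an enriched window, 31.9% held at least 1 gain and 15.6% at least 1 loss, and of the 80520 enriched windows in them 11.4% were gains and 4.21% losses. Neighbouring windows and overlapping loci, such as Prtn3 and Elane or Lyz1 and Lyz2, are not independent. A locus with more enriched windows can more easily hold a gain or loss, and counts of loci were not matched for this. Loci of macrophage receptors held gains in 18 of 22 genes and in 69 of 202 windows (34.2%), and losses in 2 windows. Tags summed over the enriched windows of Cd14, the co-receptor for lipopolysaccharide, were 541 at 3 hpi and 1874 at 12 hpi. At Csf1r, the receptor for CSF-1, they were 844 and 2225, at Itgb2, the beta 2 integrin, 482 and 1297, and at Tlr2, a receptor for bacterial lipopeptides, 371 and 1024. Msr1 had 120 and 487. Csf3r, Cd68, Ifngr2 and Emr1 held neither a gain nor a loss.

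The list of inflammatory ligands also holds 2 chemokine receptors, Ccr1 (2 gains) and Ccr2 (1 gain). With them, it held gains in 12 of 15 loci and in 43 of 88 windows (48.9%), and 2 losses. The chemokine Ccl2 went from 75 to 720 tags, a log2 change of 3.18 (2.92 to 3.63), and all 5 of its windows were gains. All 7 windows of Il1b (550 and 1688 tags) and all 5 of Il6 (286 and 806) were gains as well. Tnf held 2 losses and no gain, with 1843 and 1660 tags. In loci of lysosome and granule genes 54 of 110 windows were gains (49.1%), in 14 of 16 loci with an enriched window. Ctsd, the aspartic protease cathepsin D, had 583 and 2208 tags, Lyz2, lysozyme, 631 and 1702, and Elane, neutrophil elastase, 1360 and 3138. Subunits of the phagocyte oxidase had 25 gains and 3 losses in 64 windows (39.1% gains), with 9 in Cybb, its catalytic subunit (958 and 1818 tags), and none in Rac2, its GTPase (2433 and 2598).

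Among 17 myeloid transcription factors found, 13 had an enriched window and 8 of these held a gain. Together 41 of 173 windows were gains (23.7%) and 0 were losses, which allows a share of losses up to 2.11%. All 15 windows of Tfec, a factor of the MITF family in macrophages, were gains, with 254 and 1635 tags. Runx1 held 13 gains in 69 windows (10820 and 14897) and Mitf 5 in 9 (334 and 630). Spi1, which encodes PU.1, went from 2995 to 3991 with 3 gains in 14 windows, and its start from 1011 to 911. At the start of Cebpb, which encodes C/EBPβ, tags within the 5 kb went from 295 to 685. The loci of Klf4, Cebpa and Maf held no enriched window. AP-1 factors had gains in 15 of 75 windows, 8 of them in Fosl2, and 2 losses, in Fosl2 and Junb. At the starts of both genes tags were lower at 12 hpi, with 225 and 107 at Fosl2 and 163 and 91 at Junb.

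Loci of B-lineage factors held more losses than gains when scaled by total tags. Of their 395 windows 37 were losses (9.37%, 6.68 to 12.7) and 5 were gains (1.27%, 0.412 to 2.93). A loss lay in 7 of the 12 loci, but these loci hold many windows. That count was not set against loci of like size. Ebf1, which specifies the B lineage, had 17 losses and no gain in 125 windows, with 18015 tags at 3 hpi and 12405 at 12 hpi. Foxo1, an activator of the Rag genes, had 6 losses in 31 windows (6502 and 4648), and Bach2 5 losses and 2 gains in 71 (9301 and 7230). Pax5, the B cell commitment factor, held neither (4035 and 3893), and Ikzf1, Ikaros, held 3 gains and no loss (8186 and 9687). Log2 changes were -0.54 at Ebf1 and -0.48 at Foxo1, both larger in size than the 0.356 that background scaling adds. The losses of this list were not recounted under that scaling.

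The list of pre-B receptor and recombination genes was mixed, with 18 gains (9.73%) and 17 losses (9.19%) in 185 windows. Of its gains, 11 lay in Lyn (4595 and 6682 tags) and 6 in Syk (2587 and 3406), kinases that signal in B cells and in macrophages. Rag1 (1144 and 737) and Rag2 (1500 and 1010), the recombinase genes, held 2 losses each in overlapping loci. Blnk, the linker of the pre-B receptor (4109 and 2989), had 3 losses. Vpreb1 and Igll1, which encode the surrogate light chain, held neither. Vpreb2, another VpreB gene of the list, held 3 losses and no gain in 6 windows (1176 and 870).

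The other lists held few windows. Loci of T-lineage genes had 1 gain and 2 losses in 54 windows, erythroid genes 2 and 2 in 25, genes of every cell 3 and 3 in 62, and genes of non-blood development 2 and 2 in 9. For non-blood genes that is 22.2% in each direction, with intervals from 2.81% to 60%, and for erythroid genes 8.0% (0.984 to 26.0). Both T-lineage losses lay in Zap70 (393 and 198 tags). Medians of the locus log2 change were 1.05 for lysosome and granule genes, 0.82 for the oxidase and 0.79 for inflammatory ligands with Ccr1 and Ccr2. They were 0.62 for macrophage receptors, 0.41 for myeloid factors, -0.16 for B-lineage factors and -0.28 for pre-B receptor genes, beside 0.02 for all protein-coding genes. Both negative medians are smaller in size than the 0.356 added to each log2 ratio by background scaling, so their direction turns under it.

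**Figure D5:**
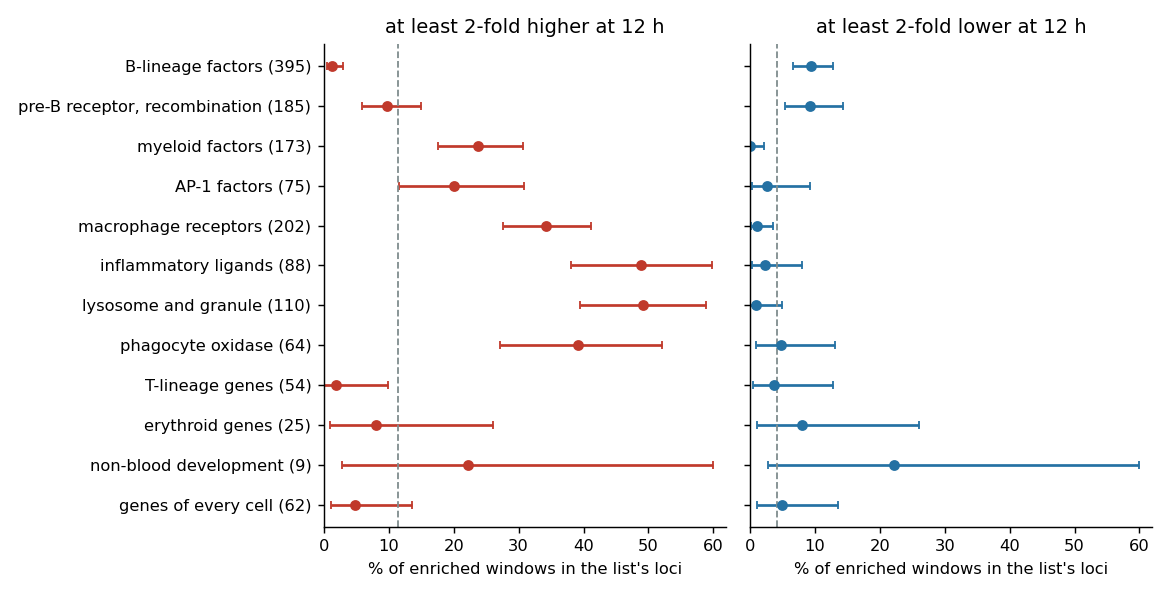
Share of the enriched H3K4Me1 windows in the loci of each gene list (number of windows in brackets) that were at least 2-fold higher (left) or lower (right) at 12 than at 3 hpi, in percent with exact 95% binomial intervals. Dashed lines mark all protein-coding loci, 11.4% and 4.21%. Lists of macrophage genes lie to the right of the line for gains, and B-lineage factors lie left of it for gains and right of it for losses.

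Counting windows by nearest protein-coding gene, a choice made after the values were seen, gave 4816 genes with a gain and 2812 with a loss. Over all enriched windows 11.9% were gains and 5.06% losses. Etv6, an ETS family repressor, was nearest to 41 gains among 60 enriched windows, and Jmjd1c to 35 among 53. Trib1, a pseudokinase that targets C/EBPα for degradation, had 27 among 81, Socs1, an inhibitor of cytokine signalling, 25 among 31, and Hif1a, the hypoxia factor, 23 among 34. On the side of losses Ebf1 came first with 26 among 170. Opcml and Car10, genes known from the nervous system, followed with 21 each among 71 and 33 windows. Next came Gm10293 (19 among 57), Gm12824 (18 among 21) and Lpin1 (17 among 43). Bcl11a, a B cell factor, had 16 among 84, Wbscr17 16 among 49 and Cdkal1 16 among 41.

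Positions that the study text gives as enhancers or putative enhancers were counted in 3 kb around the stated offset. At 16 kb upstream of Ctsd H3K4Me1 had 43 tags at 3 hpi and 297 at 12 hpi, a ratio of 6.91 (5.00 to 9.75), with H3K27Ac at 28 and 162. At 24 kb downstream of the Tlr4 start it had 70 and 185, a ratio of 2.64 (2.00 to 3.53). At 3 kb in Csf1r it had 322 and 649 (2.02, 1.76 to 2.31), and at 65 kb from Cebpb 583 and 977 (1.68, 1.51 to 1.86). Intervals of the ratio included 1 at 88 kb from Cebpb (283 and 263 tags), at 150 kb upstream of Tgfbr2 (350 and 307) and at 14 kb upstream of Spi1 (85 and 92). At the Csf1r and 65 kb Cebpb positions H3K4Me1 was highest at 12 hpi. Levels over the mean were 13.7, 15.3, 30.4, 16.2 and 15.7 at the former and 18.9, 28.3, 45.8, 31.4 and 24.3 at the latter for 0, 3, 12, 24 and 48 hpi, whereas the Ctsd position went on from 13.9 at 12 hpi to 19.6 at 48 hpi.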

How the data were processed

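The authors aligned Illumina reads to mm9 with Eland or Bowtie, without mismatches, and removed identical and non-unique tags. Which aligner served which library is not given in the sources used here. The deposited files hold the position of 1 aligned tag per line, without strand or normalization, so tags were counted here from lines (other values were not used). The H3K4Me1 files still held up to 2 tags per position at 3 and 12 hpi, and 1 was kept.

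Libraries of the pair were thinned at random to the smaller one (16.41 M for H3K4Me1, 16.34 M for H3K27Ac), placing each tag 18 bp from its start. NCBIM37 (mm9) and GENCODE vM1 (86803 starts, 22350 protein-coding genes) gave sequence and annotation. Of the tags of the pair, 0 lay in the 82908 bins of 1 kb without known bases. Chromosomes 1 to 19 and X were used. List genes were matched by symbol, 3 of them through older symbols of a RefSeq table.

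Groups came from the labels, with 1 library each, so no test was run. Ratios and shares have exact binomial (Clopper-Pearson), counts exact Poisson and medians order-statistic 95% intervals. Those of counts and ratios cover counting error only. Those of shares and medians treat windows as independent draws, which neighbouring windows are not. None of them holds replicate error. Named windows were ranked by the interval bound nearest to no change (10 distal and 5 proximal per direction, 1 per nearest gene). Members, lists and settings were chosen with earlier results of these data known. The calling step was checked on simulated counts, which covers counting error only. Python 3.11.15, numpy 2.4.6, scipy 1.17.1, pandas 2.3.3 and samtools 1.23.1 were used. Some list genes and sequences are not reported here.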

Additional observations from a re-analysis of the deposited data

Results flagged for a closer look

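Chromosome Y was outside all comparisons. Tags on it covered 785 distinct positions in the H3K4Me1 library of 3 hpi and 771 in that of 12 hpi, above the 3 that a count of 0 would allow. Their source was not tested.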

How the results depend on the processing

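No paired analysis was possible because each time had 1 library, and no library could be left out. Counts within 1.5 times of those reported came from 1 added tag, scaling by windows enriched at both times, tags as deposited, the shifted grid, the stricter tail of 1e-06, another seed, no thinning and starts of protein-coding genes only. Adding 20 tags gave 1588 distal and 178 proximal losses. Background scaling gave 16384 distal and 3215 proximal gains, 1528 distal and 161 proximal losses, and turned both median changes positive (0.319 distal, 0.297 proximal). Windows of 6 kb, which are fewer, gave 5641 and 965 gains and 2217 and 192 losses (distal and proximal). Windows of at least 10 tags gave 21611 distal and 2098 proximal losses. Measuring from the window edge gave 2902 proximal gains and 893 proximal losses. A fold minimum of 1.5 gave 18179 and 3694 gains and 14825 and 2497 losses (55.1% gains among distal calls), and one of 3 gave 4315 and 752 gains and 478 and 59 losses (90.0%). Of distal calls, gains were 82.1% with 20 tags added.

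The distal median change was 0.007 when scaled by windows enriched at both times, -0.030 with tags as deposited, -0.036 in 6 kb windows, 0.0 with the stricter tail, -0.234 with at least 10 tags and -0.034 without thinning. The proximal median was -0.010, -0.100 and -0.029 when scaled by windows enriched at both times, with at least 10 tags and from the window edge. H3K27Ac at distal gains stayed positive throughout, at 1.184 with 1 tag, 0.943 with 20 tags, 1.148 and 1.065 with background scaling and scaling by windows enriched at both times, 1.146 in 6 kb windows, 1.145 with the stricter tail and 0.848 with at least 10 tags. At distal losses it stayed negative, at -0.415 with 1 tag, in 6 kb windows and with the stricter tail, -0.245 with 20 tags, -0.158 with background scaling, -0.334 on the shifted grid and -0.138 with at least 10 tags. Apart from the settings' own construction, the cause was not tested.

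The 30 named windows kept their sign under all 7 alternatives run on them (210 values). They were chosen for large changes in the same counts, so a kept sign was largely fixed in advance and is no support. At least 2-fold changes were kept by all 30 under the pseudocounts, scalings and tags as deposited, but on the shifted grid by 14 of 15 gains and 13 of 15 losses, and in 6 kb windows by 15 and 13. Those that ended were Scarb1, Lrig3 and Pkm2 on the shifted grid and Slc15a3 and Pkm2 in 6 kb windows. Depth limits single windows, since at 3 hpi the named distal gains held as little as 1 tag.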
